A study of Mus musculus with 18 samples.

Results

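The 43 genes described here are interferon-stimulated genes, a set of named transcription factors, nucleic acid sensors, antiviral effectors, GTPases and chemokines whose transcription interferons raise. They were taken by gene name from the deposited gene table, where each name matched 1 of 54532 gene entries, and the rule used names alone. The table gave their RNA level in 3 kinds of cell from mouse livers after bile duct ligation (BDL), in which the common bile duct is tied off, and after a Sham operation. MPH are primary hepatocytes, BECs are the epithelial cells of the bile ducts, and Kupffer-like cells take their name from liver macrophages. The 6 groups were MPH BDL, MPH Sham, BECs BDL, BECs Sham, Kupffer-like BDL and Kupffer-like Sham, with 3 libraries in each. Strain, age and the time after ligation were not given in the sources used here. The labels did not state that the libraries of a group came from separate mice, so p-values measure the spread among these libraries. Male and female libraries, told apart by Y-linked genes, were mixed in every group, so each group held libraries of more than 1 mouse. How much of the spread is technical is not known.

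Type I interferons bind the receptor IFNAR1 and IFNAR2, whose kinases activate the complex ISGF3, which includes STAT2 and IRF9. ISGF3 binds the interferon-stimulated response element (ISRE) in promoters, whereas interferon gamma acts at the gamma-activated site (GAS). In the liver, interferon-stimulated genes are known for restricting hepatotropic viruses, and Kupffer cells are a known source and target of interferons.

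The promoters of members whose RNA is followed below show where these elements lie. Sequences are from RefSeq on GRCm38.p6 and cover the 120 bases before the annotated start, written 5′ to 3′ along the gene. Capitals mark matches to the ISRE core (GAAA, 2 free bases, GAAA) or to the GAS pattern (TTCNNNGAA) on either strand. Isg15 (chr4:156200819-156200938, minus strand) and Ifit1 (chr19:34640769-34640888, plus strand) are shown because they are standard reporters of ISGF3 and stood apart from the GTPases in BECs. Igtp (chr11:58199436-58199555, plus strand) and Irgm2 (chr11:58214857-58214976, plus strand) belong to the 4 GTPases that fell together in BECs. Ifi203 (chr1:173942493-173942612, minus strand), Ifi208 (chr1:173673545-173673664, plus strand) and Ifi213 (chr1:173599273-173599392, minus strand) are shown because these PYHIN genes fell in Kupffer-like cells and carry the same ISRE letters.
Isg15: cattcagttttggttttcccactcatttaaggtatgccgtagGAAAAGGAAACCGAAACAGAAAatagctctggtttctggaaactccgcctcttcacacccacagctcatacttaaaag
Ifit1: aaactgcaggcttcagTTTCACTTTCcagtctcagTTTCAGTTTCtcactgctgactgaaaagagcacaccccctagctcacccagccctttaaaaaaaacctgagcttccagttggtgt
Igtp: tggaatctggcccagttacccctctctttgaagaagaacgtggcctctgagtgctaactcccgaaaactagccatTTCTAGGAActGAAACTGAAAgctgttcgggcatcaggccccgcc
Irgm2: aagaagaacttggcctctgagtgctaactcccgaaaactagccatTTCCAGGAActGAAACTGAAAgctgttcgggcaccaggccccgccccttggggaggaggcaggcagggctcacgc
Ifi203: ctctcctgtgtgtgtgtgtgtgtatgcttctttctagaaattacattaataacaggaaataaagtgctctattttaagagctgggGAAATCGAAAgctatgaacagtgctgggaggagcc
Ifi208: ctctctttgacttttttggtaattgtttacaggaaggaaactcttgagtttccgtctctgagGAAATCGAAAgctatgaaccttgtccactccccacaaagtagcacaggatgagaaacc
Ifi213: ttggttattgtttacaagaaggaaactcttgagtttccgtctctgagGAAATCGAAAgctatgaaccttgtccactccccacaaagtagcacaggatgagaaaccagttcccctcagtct

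Isg15 held ISRE matches beginning 78, 72 and 66 bases before the start, which overlap each other, and Ifit1 held matches at 104 and 85 bases. Igtp carried a GAS match at 45 bases followed by an ISRE match at 34, and Irgm2 carried the same pair at 75 and 64 bases. The 21-base stretch that holds both matches differed between Igtp and Irgm2 at 1 base. The ISRE of Ifi203, Ifi208 and Ifi213 had identical letters, at 35, 58 and 73 bases before the start, and these letters were in the promoters of 3 members and in 13 of 32851 promoters in all (0.0396%). Since these genes were chosen for the shared letters, their identity is no result of its own. Ifi208 and Ifi213 matched at 233 of 235 aligned bases (99.15%) in the 250 before the start, with 30 gap columns, so they are not separate instances. Ifi203 had 2 promoters, and the one without a match is not shown. In windows from 250 bases before to 50 after the start, RefSeq gave 37 promoters for 32 of the members. An ISRE match was present in 24 of these 37 promoters (64.9%), against 3.44% of all promoters, and a GAS match in 7 (18.9%), against 8.3%. Both were present in 6 of the 37 (16.2%), against 0.454% of all promoters. Irgm1, which also fell in BECs, held 2 ISRE matches and no GAS match, and Iigp1 had no RefSeq promoter. Cxcl9, Irf9 and Ifi44 fell in BECs as well and held neither. Bst2, Ifit2, Oas1a, Gbp5 and Gbp7 held a GAS match and were not called lower in BECs. The pair of Igtp and Irgm2 was thus not common to the members that fell there. These matches describe letters in a window and measure no binding.

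Depth was 15455406 to 20583321 reads in genes per library, recovered from the deposited values, and the members' own reads went as low as 3, for Cxcl9 in 1 MPH BDL library. The cell labels were set against summed levels of defining markers. Hepatocyte markers summed to 45906 to 104201 FPKM (fragments scaled by gene length and library size) in MPH BDL and 36123 to 103540.0 FPKM in MPH Sham, against at most 3529 FPKM in any other library. Biliary markers summed to 2565 to 2941 FPKM in BECs BDL and 3432 to 3893 FPKM in BECs Sham, and to at most 146 FPKM elsewhere. Kupffer cell markers summed to 2304 to 13357 FPKM in Kupffer-like BDL and 5980.3 to 7242 FPKM in Kupffer-like Sham, and also reached 1205 to 4671 FPKM in MPH BDL and 1768 to 7066 FPKM in MPH Sham. The MPH libraries thus held RNA of these macrophage markers, and in all groups fewer cells of a type and less RNA per cell cannot be told apart.

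Most interferon-stimulated genes were lower after BDL in each of the kinds of cell. Ratios were lower in MPH and Kupffer-like cells than in BECs, where 12 of 41 members tested turned sign without BDL library 3. Summed over the 43 members, the level was 546 ± 205 FPKM in MPH BDL against 1394 ± 450.2 FPKM in MPH Sham (SD, n = 3 each), a ratio of 0.392. In Kupffer-like cells the sum was 851 ± 169.8 FPKM in BDL against 1639 ± 189 FPKM in Sham (ratio 0.519), and in BECs 558 ± 249 FPKM in BDL against 714 ± 181 FPKM in Sham (ratio 0.782). The libraries did not overlap in MPH, where BDL summed to 625, 700.2 and 314 FPKM against 1897, 1253 and 1030.3 FPKM in Sham, nor in Kupffer-like cells, with 1043, 786 and 723 FPKM in BDL against 1530.0, 1529 and 1857 FPKM in Sham. They did overlap in BECs, with 745, 655 and 276 FPKM in BDL against 526, 727 and 888 FPKM in Sham. Throughout, values stand for libraries 1, 2 and 3 in that order.

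**Figure D1:**
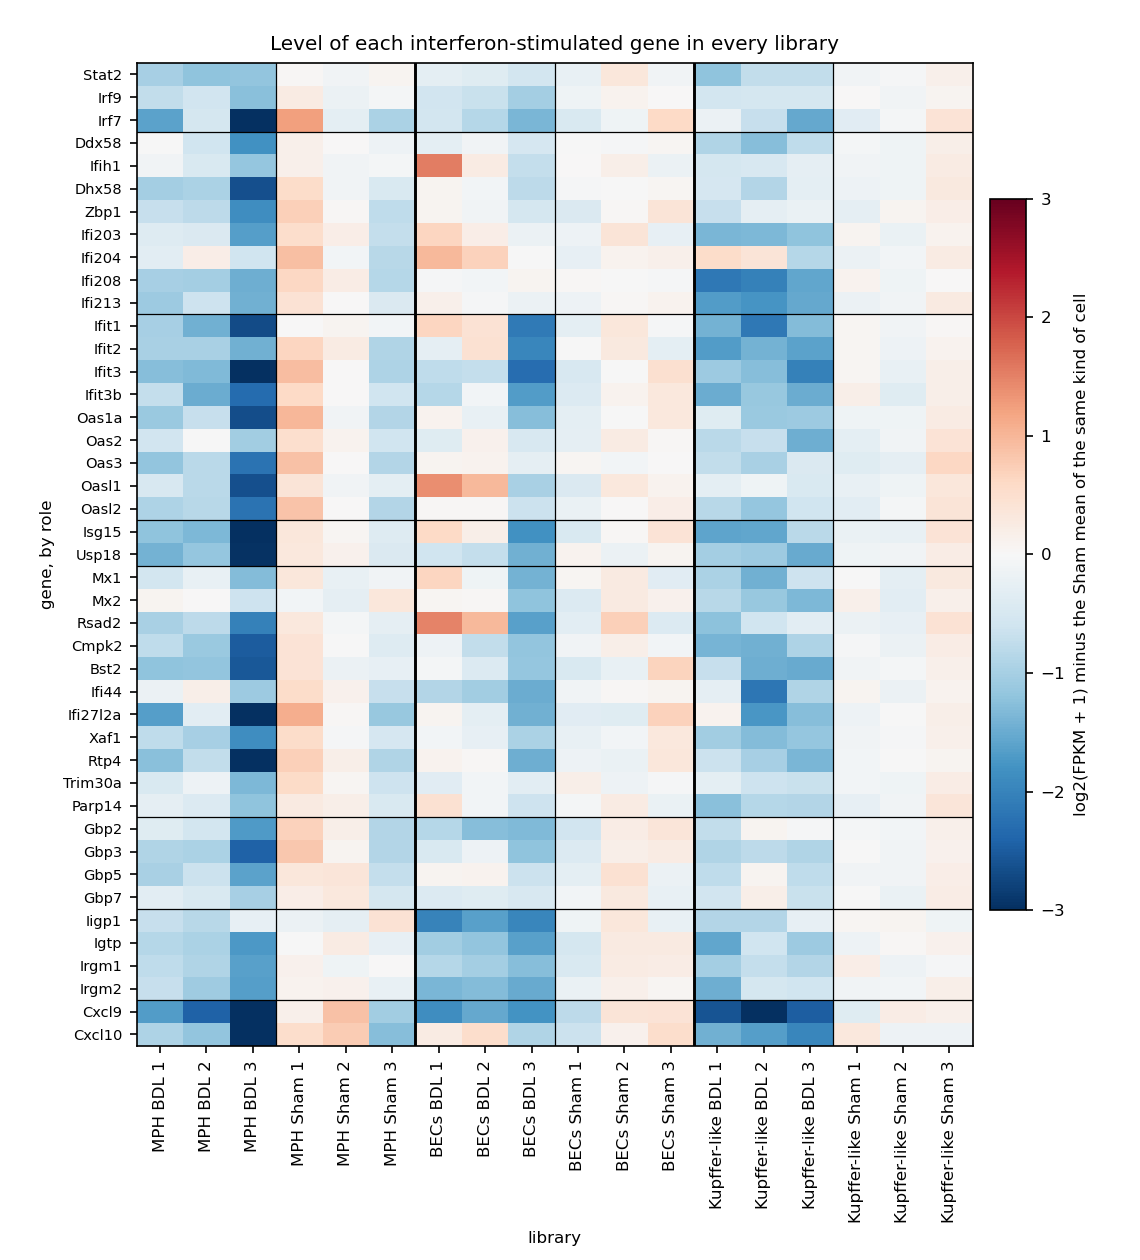
Heat map of log2(FPKM + 1) of each member minus the Sham mean of the same kind of cell, with members by role down the page and the 18 libraries across. Blue is below and red above the Sham mean. MPH BDL library 3 and BECs BDL library 3 were the lowest of their groups in 41 and 39 of the 43 members.

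A fit across all genes in each kind of cell (limma on log2(FPKM + 1), genes with at least 1 FPKM in at least 3 libraries) gave the changes of single members. In MPH, all 42 members tested had a negative change, with a median of -1.15 on the log2 scale against -0.06 for all genes. A negative change was found for 54.8% of all genes tested. Only 1, Stat2, fell at an adjusted p under 0.05, where 0.86% of all genes tested were called lower and 0.714% higher. In 20 of the 42, every BDL library lay below every Sham library, as did 18.4% of all genes, and no member lay above, against 11.8% of all genes. At an unadjusted p under 0.05 there were 23 members, beside 2791 of the 12323 genes tested. Stat2 lost its call without any 1 of the 6 MPH libraries, with adjusted p = 0.0593 to 0.209, and no other member was called in those fits. With all 18 libraries in 1 fit, 19 members were called lower in MPH, whereas 0 were called without the filter on level, with either rescaling of the libraries or with sex as a covariate. The share of all genes called in these fits is not given here, so the 19 are not shown to be particular to the members.

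In Kupffer-like cells, 42 of 43 members had a negative change and 16 of them fell, with 2.4% of all genes called lower and 1.47% higher. The median change of the members was -0.97, against 0.03 for all genes, of which 47.3% had a negative change. The groups did not overlap in 35 members, all lower in BDL (15.6% of all genes), and none was higher (16.7% of all genes). The 16 were Ddx58, Ifi203, Ifi208, Ifi213, Ifit1, Ifit2, Ifit3, Ifit3b, Usp18, Cmpk2, Mx2, Xaf1, Gbp3, Irgm1, Cxcl9 and Cxcl10. The number of calls changed when single libraries were left out. Leaving out Sham library 1, 2 or 3 or BDL library 2 left 0 members and 0 of all genes called by limma. These fits had 28 to 32 members at an unadjusted p under 0.05, and 42 or 43 negative. With every library, 32 members and 3070 of the 12748 genes tested had an unadjusted p under 0.05. Without BDL library 3, 25 members were called, and the share of all genes called in that fit is not given here. Adding sex as a covariate, a fit chosen after the values were seen, also left 0 members and 1 of all genes called.

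In BECs, all 4 immunity related GTPases were among the members that fell. Of 41 members tested, 36 had a negative change with a median of -0.41, against -0.03 for all genes, and 7 fell: Irf9, Ifi44, Iigp1, Igtp, Irgm1, Irgm2 and Cxcl9. Of all genes tested, 53.6% had a negative change, and 4.7% were called lower and 2.96% higher. The groups did not overlap in 15 members, all lower in BDL (18.8% of all genes), and none was higher (13% of all genes). BECs BDL library 3 was the lowest of its group in 39 of 43 members, and without it 24 of 41 had a negative change with a median of -0.11, and Oasl1 (log2 change 1.18, limma adjusted p = 0.0465) and Ifi204 (0.83, 0.0488) were called higher in BDL. Counts of calls were 2 to 5 without any 1 library: 2 without Sham library 2 or 3, 3 without BDL library 1 or 2, and 5 without Sham library 1 or BDL library 3. The share of all genes called in those fits is not given here.

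**Figure D2:**
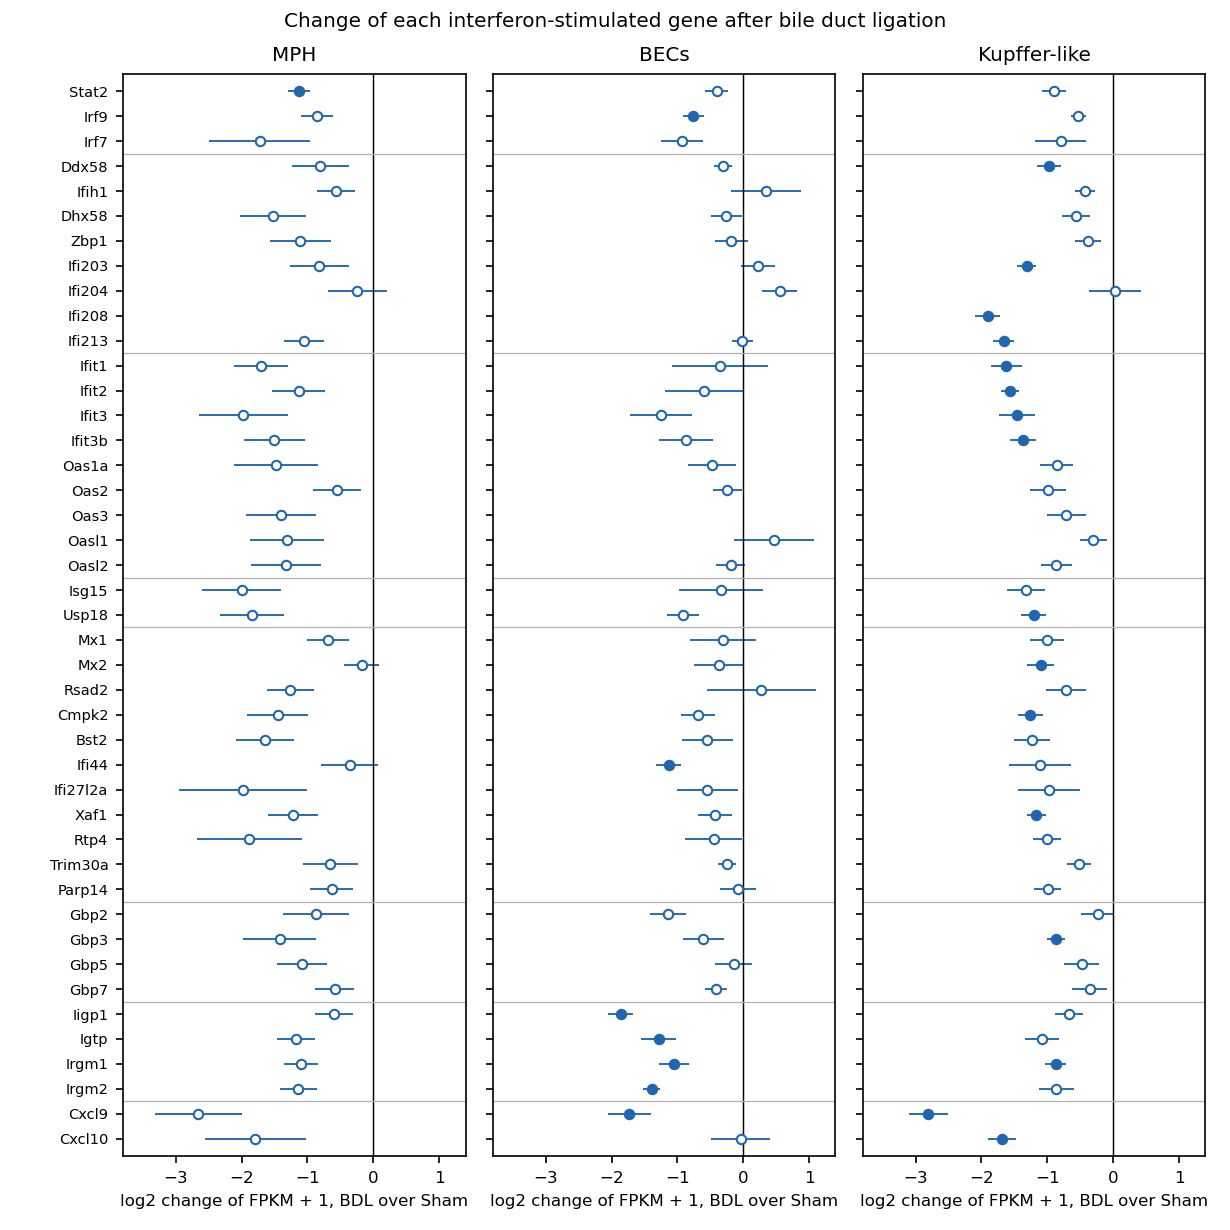
Log2 change of FPKM + 1, BDL over Sham, for each member in MPH, BECs and Kupffer-like cells, with bars of 1 standard error and members by role. Filled points passed a limma adjusted p of 0.05, and points left of 0 were lower in BDL. The 4 IRG members (Iigp1, Igtp, Irgm1, Irgm2) were filled in BECs and the 4 IFIT members in Kupffer-like cells.

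Across the 3 kinds of cell, 22 members fell in at least 1, Cxcl9 and Irgm1 fell in both BECs and Kupffer-like cells, and none was called higher in any. A negative change was shared by 36 members, although in BECs 12 of 41 members turned sign without BDL library 3, 3 with sex as a covariate, and 2 when libraries were rescaled to a common FPKM sum or by recovered reads. Those rescalings moved the median change of all genes by 0.16 and 0.05 (MPH), 0.06 and 0.06 (BECs), and -0.29 and -0.18 (Kupffer-like cells). In 9 of the 41 members tested in all 3 kinds of cell (22.0%), every BDL library lay below every Sham library in each kind, as did 1.16% of all genes tested in all 3, and no member lay above in each, against 1.43% of all genes. The 9 were Stat2, Irf9, Ifit3, Usp18, Cmpk2, Igtp, Irgm1, Irgm2 and Cxcl9. Stat2 and Irf9 among them encode subunits of ISGF3.

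Stat2 (chr10:128270559-128292849, GRCm38), the STAT protein used by type I but not type II interferon, was the member called in MPH. In MPH, Stat2 had 8.87, 7.51 and 7.72 FPKM in BDL, against 19.1, 17.4 and 19.7 FPKM in Sham. In BECs, Stat2 had 6.98, 6.54 and 5.64 FPKM in BDL, against 7.33, 11.3 and 8.07 FPKM in Sham. In Kupffer-like cells, Stat2 had 8.52, 12.2 and 12.3 FPKM in BDL, against 19.5, 20.4 and 23.7 FPKM in Sham. Every BDL library was below every Sham library in all 3, and the MPH BDL libraries were close to each other. Stat2 fell in MPH (log2 change -1.13, standard error 0.17, limma adjusted p = 0.0364), and the changes in BECs (-0.40, limma adjusted p = 0.202) and Kupffer-like cells (-0.90, 0.0501) did not pass. Irf9, the DNA-binding subunit of ISGF3, had 8.12, 9.22 and 5.36 FPKM in BDL, against 16.9, 12.5 and 13.5 FPKM in Sham, in MPH. In BECs, Irf9 had 9.57, 8.88 and 6.75 FPKM in BDL, against 13.4, 16.0 and 14.9 FPKM in Sham. In Kupffer-like cells, Irf9 had 11.9, 12.0 and 12.0 FPKM in BDL, against 17.9, 16.6 and 18.9 FPKM in Sham. The groups were separate in each kind of cell, with the narrowest spread in Kupffer-like BDL. Irf9 fell in BECs (log2 change -0.76, standard error 0.15, limma adjusted p = 0.0356), and its changes of -0.86 in MPH and -0.53 in Kupffer-like cells had limma adjusted p of 0.108 and 0.0589. Irf9 shares exon positions with Rnf31 on the same strand.

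Irf7, the factor that amplifies type I interferon transcription, varied widely between libraries. In MPH, Irf7 had 27.5, 59.2 and 9.28 FPKM in BDL, against 203, 69.7 and 43.3 FPKM in Sham. In BECs, Irf7 had 9.53, 7.52 and 5.01 FPKM in BDL, against 10.2, 13.1 and 22.5 FPKM in Sham. In Kupffer-like cells, Irf7 had 113, 79.3 and 43.5 FPKM in BDL, against 101, 122 and 169.9 FPKM in Sham. The groups overlapped in MPH and Kupffer-like cells and were separate in BECs, and the Sham libraries of MPH alone spanned 43.3 to 203 FPKM. Changes were -1.73 (MPH), -0.93 (BECs) and -0.80 (Kupffer-like cells), with limma adjusted p of 0.245, 0.127 and 0.269.

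The list of 8 sensors of nucleic acid, which took in PYHIN genes by family, held 4 of the calls in Kupffer-like cells. It held none in MPH or BECs. Limma called 0 of 7 tested in each of MPH and BECs, where 3 and 0 had an unadjusted p under 0.05 and voom, which fits the recovered reads, also called 0 in each. Of all genes, 2791 of 12323 in MPH and 3526 of 13573 in BECs had an unadjusted p under 0.05. Ddx58, which encodes the RNA helicase RIG-I, had 11.1, 7.11 and 2.50 FPKM in BDL, against 12.6, 11.2 and 10.0 FPKM in Sham, in MPH. In BECs, Ddx58 had 5.67, 6.59 and 4.76 FPKM in BDL, against 7.13, 6.96 and 7.51 FPKM in Sham. In Kupffer-like cells, Ddx58 had 7.95, 5.90 and 8.83 FPKM in BDL, against 15.0, 14.2 and 17.9 FPKM in Sham. The Kupffer-like groups and the BECs groups were each separate, the second by a small margin, and the MPH groups overlapped. Ddx58 fell in Kupffer-like cells (log2 change -0.97, standard error 0.18, limma adjusted p = 0.0441) and had changes of -0.80 in MPH and -0.31 in BECs. Dhx58, which encodes LGP2, a relative of RIG-I, had 5.45, 5.82 and 1.11 FPKM in BDL, against 18.1, 11.2 and 8.56 FPKM in Sham, in MPH. In BECs, Dhx58 had 4.32, 3.72 and 1.90 FPKM in BDL, against 3.83, 3.91 and 4.24 FPKM in Sham. In Kupffer-like cells, Dhx58 had 10.9, 8.11 and 12.7 FPKM in BDL, against 14.1, 14.3 and 19.7 FPKM in Sham. MPH BDL library 3 was far below the other MPH libraries, and the groups overlapped in BECs. The change in MPH was -1.53 (limma adjusted p = 0.145). The antisense gene Dhx58os overlaps Dhx58, and the counting is not stated to use strand. Ifih1, which encodes the RNA sensor MDA5, reached 25.5 FPKM in BECs BDL library 1, against at most 9.89 FPKM in each other BECs library. Zbp1, a sensor of Z-form nucleic acid, had changes of -1.11, -0.18 and -0.39 in MPH, BECs and Kupffer-like cells, with limma adjusted p of 0.217 or more.

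The PYHIN genes, a mouse gene family on chromosome 1, held 3 of the members that fell in Kupffer-like cells. Ifi208 (chr1:173673675-173698395) had 1.35, 1.55 and 2.55 FPKM in BDL, against 10.2, 8.47 and 9.53 FPKM in Sham, in Kupffer-like cells. In MPH, Ifi208 had 0.727, 0.690 and 0.248 FPKM in BDL, against 4.32, 3.01 and 0.902 FPKM in Sham. In BECs, Ifi208 had 0.446, 0.396 and 0.573 FPKM in BDL, against 0.517, 0.481 and 0.448 FPKM in Sham. In BECs no library, and in MPH fewer than 3 libraries, reached the 1 FPKM that the filter asks for, so Ifi208 was not tested there alone. Every BDL library was below every Sham library in Kupffer-like cells and MPH, and the BECs groups overlapped. Ifi208 fell in Kupffer-like cells (log2 change -1.91, standard error 0.19, limma adjusted p = 0.0208), on 121 to 251 reads per BDL library and 869 to 1081 reads per Sham library. Ifi213 (chr1:173566283-173599274) had 2.79, 2.54 and 3.19 FPKM in BDL, against 9.78, 10.3 and 13.5 FPKM in Sham, in Kupffer-like cells. In MPH, Ifi213 had 0.594, 1.203 and 0.259 FPKM in BDL, against 3.56, 2.43 and 1.51 FPKM in Sham. In BECs, Ifi213 had 1.22, 0.953 and 0.753 FPKM in BDL, against 0.803, 1.05 and 1.12 FPKM in Sham. Groups stood apart in Kupffer-like cells and MPH and overlapped in BECs. Ifi213 fell in Kupffer-like cells (log2 change -1.66, standard error 0.16, limma adjusted p = 0.0208), and had a change of -1.05 in MPH (limma adjusted p = 0.118).

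Ifi203 (chr1:173920407-173942672), of the same family, had 12.5, 12.7 and 14.0 FPKM in BDL, against 35.8, 29.6 and 36.9 FPKM in Sham, in Kupffer-like cells. In MPH, Ifi203 had 6.56, 6.28 and 2.15 FPKM in BDL, against 13.2, 10.3 and 4.97 FPKM in Sham. In BECs, Ifi203 had 10.5, 7.30 and 5.42 FPKM in BDL, against 5.57, 8.57 and 5.15 FPKM in Sham. Only the Kupffer-like groups were separate. Ifi203 fell in Kupffer-like cells (log2 change -1.31, standard error 0.14, limma adjusted p = 0.0214) and had changes of -0.82 in MPH and 0.22 in BECs. Ifi204, which encodes p204, a mouse relative of human IFI16, had the 1 positive change among members in Kupffer-like cells (log2 change 0.03, standard error 0.39, limma adjusted p = 0.975), where the sign of 1 member turned under each rescaling of the libraries. Its Kupffer-like BDL libraries had 87.1, 78.1 and 32.6 FPKM, against 52.7, 56.0 and 71.3 FPKM in Sham, so that library 3 lay below and libraries 1 and 2 above all of Sham. Of the 50-base stretches in their exons, Ifi208 shared 20.8%, Ifi204 20.02%, Ifi213 15.6% and Ifi203 12.2% with another gene, so how their reads were divided between copies is uncertain.

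**Figure D3:**
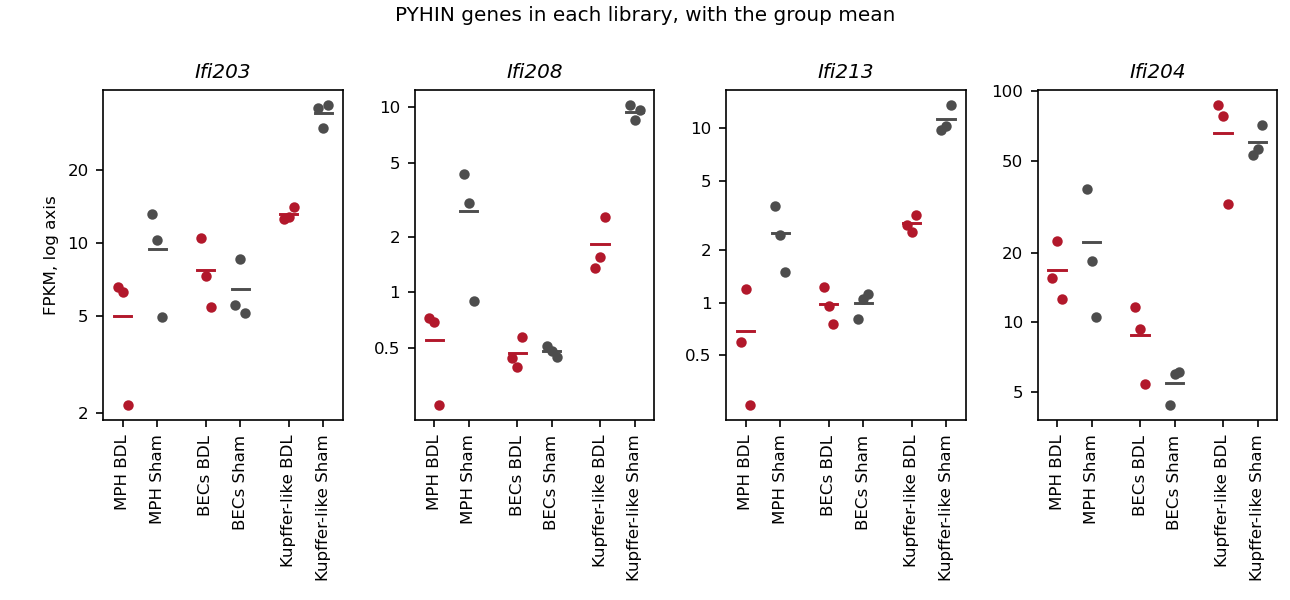
FPKM of Ifi203, Ifi208, Ifi213 and Ifi204 in each library, on log axes, with BDL in red left of Sham in grey and a bar at each group mean. For Ifi203, Ifi208 and Ifi213 the Kupffer-like BDL libraries lay below all Kupffer-like Sham libraries, while the BECs groups overlapped.

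The IFIT and OAS proteins act on viral RNA. IFIT proteins bind foreign RNA ends, and OAS enzymes make the messenger that activates RNase L. In Kupffer-like cells, 4 of these 9 members fell and all 9 changes were negative. All 9 were negative in MPH as well, where limma and voom each called 0. An unadjusted p under 0.05 was found for 6 of them, and for 2791 of all 12323 genes. Ifit1 (chr19:34640871-34650009) had 3.73, 1.85 and 4.12 FPKM in BDL, against 12.0, 10.8 and 12.0 FPKM in Sham, in Kupffer-like cells. In MPH, Ifit1 had 4.29, 2.88 and 0.667 FPKM in BDL, against 9.71, 10.2 and 8.98 FPKM in Sham. In BECs, Ifit1 had 25.7, 22.2 and 2.95 FPKM in BDL, against 13.0, 20.9 and 15.7 FPKM in Sham. Kupffer-like and MPH groups did not overlap, and in BECs libraries 1 and 2 of BDL lay above all Sham libraries while library 3 lay below them. Ifit1 fell in Kupffer-like cells (log2 change -1.62, standard error 0.24, limma adjusted p = 0.0348), with changes of -1.71 in MPH (limma adjusted p = 0.0837) and -0.35 in BECs. Ifit2 had 8.401, 10.3 and 8.99 FPKM in BDL, against 30.3, 26.1 and 31.7 FPKM in Sham, in Kupffer-like cells. In MPH, Ifit2 had 3.98, 3.94 and 2.56 FPKM in BDL, against 14.3, 10.6 and 4.21 FPKM in Sham. In BECs, Ifit2 had 13.0, 22.0 and 3.31 FPKM in BDL, against 15.7, 19.4 and 12.8 FPKM in Sham. Ifit2 fell in Kupffer-like cells, with separate groups (log2 change -1.57, standard error 0.14, limma adjusted p = 0.0208), and BECs BDL ranged from the lowest to the highest value of that kind of cell.

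Ifit3 and Ifit3b lie beside each other and share sequence: 51.2% of the 50-base stretches of Ifit3 occur in another gene, mostly Ifit3b, and 44.5% of those of Ifit3b. Ifit3 had 28.2, 24.5 and 14.2 FPKM in BDL, against 62.9, 52.3 and 68.3 FPKM in Sham, in Kupffer-like cells. In MPH, Ifit3 had 9.95, 9.52 and 1.66 FPKM in BDL, against 49.4, 25.6 and 12.9 FPKM in Sham. In BECs, Ifit3 had 9.79, 9.99 and 2.73 FPKM in BDL, against 12.0, 17.1 and 24.4 FPKM in Sham. Every BDL library was below every Sham library in each kind of cell, narrowly so in MPH and BECs, and the lowest values were those of BDL library 3. Ifit3 fell in Kupffer-like cells (log2 change -1.46, standard error 0.27, limma adjusted p = 0.0469). Ifit3b had 3.09, 4.16 and 3.10 FPKM in BDL, against 12.0, 7.84 and 12.0 FPKM in Sham, in Kupffer-like cells. In MPH, Ifit3b had 3.11, 1.41 and 0.373 FPKM in BDL, against 9.21, 5.82 and 3.47 FPKM in Sham. In BECs, Ifit3b had 1.61, 3.45 and 0.462 FPKM in BDL, against 2.52, 4.05 and 4.86 FPKM in Sham. Outside BECs the groups did not overlap, and Ifit3b fell in Kupffer-like cells (log2 change -1.37, standard error 0.20, limma adjusted p = 0.0341). Among the OAS members, Oas2 in Kupffer-like cells had 14.1, 15.5 and 8.59 FPKM in BDL, against 20.6, 23.7 and 34.1 FPKM in Sham, with a change of -0.99 (limma adjusted p = 0.103). Oas1a, which shares 57.6% of its 50-base stretches with Oas1g and is uncertain for that reason, had a change of -0.86 in Kupffer-like cells. Oasl1, in mice a known inhibitor of IRF7 translation, had 65.0, 48.6 and 11.9 FPKM in BDL, against 17.7, 30.5 and 26.2 FPKM in Sham, in BECs, where libraries 1 and 2 of BDL were above all of Sham and library 3 below. Its change was 0.47 in BECs and -1.31 in MPH, with limma adjusted p of 0.680 and 0.227.

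ISG15 is a ubiquitin-like protein that is conjugated to others, and USP18 removes it and also restrains IFNAR signalling. Isg15 had 15.8, 14.2 and 2.59 FPKM in BDL, against 48.0, 39.2 and 28.8 FPKM in Sham, in MPH. In BECs, Isg15 had 99.8, 74.2 and 17.8 FPKM in BDL, against 47.4, 67.0 and 87.9 FPKM in Sham. In Kupffer-like cells, Isg15 had 16.4, 16.9 and 28.8 FPKM in BDL, against 44.6, 43.9 and 69.1 FPKM in Sham. BDL lay below Sham throughout in MPH and Kupffer-like cells, whereas BECs BDL held both the highest and the lowest value of BECs. Changes were -2.00 (MPH), -0.35 (BECs) and -1.32 (Kupffer-like cells), with limma adjusted p of 0.123, 0.776 and 0.0614. Usp18 had 3.60, 4.51 and 0.568 FPKM in BDL, against 14.3, 12.3 and 8.01 FPKM in Sham, in MPH. In BECs, Usp18 had 3.60, 3.20 and 1.55 FPKM in BDL, against 6.37, 5.09 and 6.34 FPKM in Sham. In Kupffer-like cells, Usp18 had 5.41, 5.08 and 3.60 FPKM in BDL, against 10.9, 11.1 and 14.3 FPKM in Sham. No kind of cell showed overlap between the groups. Usp18 fell in Kupffer-like cells (log2 change -1.21, standard error 0.18, limma adjusted p = 0.0349), and changes of -1.84 in MPH and -0.91 in BECs had limma adjusted p of 0.0980 and 0.0641.

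Among the 11 other antiviral effectors, Bst2, which encodes tetherin, a protein that holds budding virions on the cell surface, had the highest level. In MPH, Bst2 had 215, 219 and 83.8 FPKM in BDL, against 662, 439 and 419 FPKM in Sham. In BECs, Bst2 had 109, 85.1 and 50.4 FPKM in BDL, against 82.7, 97.8 and 182 FPKM in Sham. In Kupffer-like cells, Bst2 had 180.1, 106 and 102 FPKM in BDL, against 274, 283 and 326 FPKM in Sham. The groups were separate in MPH and Kupffer-like cells and overlapped in BECs. The changes were -1.64 (MPH), -0.54 (BECs) and -1.23 (Kupffer-like cells), and none passed, with limma adjusted p of 0.0991, 0.424 and 0.0612. Ifi27l2a, a small hydrophobic protein gene, had 31.3, 81.0 and 5.43 FPKM in BDL, against 215, 103 and 45.5 FPKM in Sham, in MPH. In BECs, Ifi27l2a had 57.4, 44.4 and 19.4 FPKM in BDL, against 42.6, 42.2 and 88.1 FPKM in Sham. In Kupffer-like cells, Ifi27l2a had 207, 57.2 and 79.7 FPKM in BDL, against 174, 192 and 218 FPKM in Sham. Groups overlapped in all 3, and the MPH libraries spanned 5.43 to 215 FPKM. None of its changes passed the test.

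Cmpk2, a mitochondrial nucleotide kinase gene next to Rsad2, had 4.21, 4.00 and 6.14 FPKM in BDL, against 12.3, 11.0 and 15.0 FPKM in Sham, in Kupffer-like cells. In MPH, Cmpk2 had 3.69, 2.65 and 0.403 FPKM in BDL, against 9.46, 6.77 and 5.06 FPKM in Sham. In BECs, Cmpk2 had 3.74, 2.16 and 1.33 FPKM in BDL, against 3.90, 4.93 and 4.01 FPKM in Sham. All BDL libraries were below all Sham libraries in each kind of cell, and Cmpk2 fell in Kupffer-like cells (log2 change -1.26, standard error 0.19, limma adjusted p = 0.0352). Rsad2, which encodes viperin, went with Cmpk2 in sign in MPH (-1.26) and Kupffer-like cells (-0.72) but not in BECs (0.28), where it had 33.1, 22.9 and 2.95 FPKM in BDL, against 8.83, 19.0 and 8.22 FPKM in Sham. None of these Rsad2 changes passed. Xaf1, which encodes a partner of the apoptosis inhibitor XIAP, had 3.89, 3.05 and 3.50 FPKM in BDL, against 8.28, 8.76 and 10.1 FPKM in Sham, in Kupffer-like cells. In MPH, Xaf1 had 2.11, 1.63 and 0.457 FPKM in BDL, against 6.78, 4.14 and 2.71 FPKM in Sham. In BECs, Xaf1 had 3.00, 2.61 and 1.19 FPKM in BDL, against 2.64, 3.01 and 4.29 FPKM in Sham. Only in BECs did the groups overlap, and Xaf1 fell in Kupffer-like cells (log2 change -1.16, standard error 0.14, limma adjusted p = 0.0236).

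Mx2 encodes a dynamin-like antiviral GTPase and is annotated as a polymorphic pseudogene in the reference strain. Mx2 had 3.31, 2.49 and 2.01 FPKM in BDL, against 7.56, 5.14 and 7.54 FPKM in Sham, in Kupffer-like cells. In MPH, Mx2 had 3.57, 3.30 and 1.78 FPKM in BDL, against 3.08, 2.54 and 4.45 FPKM in Sham. In BECs, Mx2 had 4.65, 4.52 and 1.33 FPKM in BDL, against 3.05, 5.52 and 4.93 FPKM in Sham. Only the Kupffer-like groups were separate, and Mx2 fell there (log2 change -1.10, standard error 0.20, limma adjusted p = 0.0457), while in MPH the change was -0.18. Ifi44, which encodes a cytoplasmic interferon-induced protein, had 1.17, 0.939 and 0.420 FPKM in BDL, against 2.68, 3.06 and 3.20 FPKM in Sham, in BECs. In MPH, Ifi44 had 2.29, 3.18 and 0.745 FPKM in BDL, against 4.45, 3.05 and 1.28 FPKM in Sham. In Kupffer-like cells, Ifi44 had 5.47, 0.723 and 3.21 FPKM in BDL, against 7.20, 5.88 and 7.42 FPKM in Sham. The BECs and Kupffer-like groups were separate, with Kupffer-like BDL spread from 0.723 to 5.47 FPKM. Ifi44 fell in BECs (log2 change -1.13, standard error 0.19, limma adjusted p = 0.0219), and its change of -1.11 in Kupffer-like cells had a limma adjusted p of 0.215.

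Guanylate binding proteins are interferon gamma-induced GTPases that attack the vacuoles of intracellular pathogens. All 4 members had negative changes in each kind of cell, and 1 fell, Gbp3 in Kupffer-like cells. Gbp3 had 15.9, 17.5 and 16.0 FPKM in BDL, against 30.4, 28.4 and 33.9 FPKM in Sham, there. In MPH, Gbp3 had 6.86, 6.52 and 1.74 FPKM in BDL, against 24.6, 14.5 and 6.91 FPKM in Sham. In BECs, Gbp3 had 6.40, 8.19 and 3.38 FPKM in BDL, against 6.65, 10.4 and 11.0 FPKM in Sham. The Kupffer-like groups were clearly separate, and the MPH groups by the narrow gap between 6.86 FPKM, the highest BDL value, and 6.91 FPKM, the lowest Sham value. The change in Kupffer-like cells was -0.87 (standard error 0.13, limma adjusted p = 0.0348). Gbp2 had 11.7, 8.47 and 8.19 FPKM in BDL, against 14.3, 25.5 and 28.4 FPKM in Sham, in BECs, with separate groups and a change of -1.14 (limma adjusted p = 0.0503). In Kupffer-like cells the change of Gbp2 was -0.24.

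The immunity related GTPases (IRG proteins) act with the guanylate binding proteins at pathogen vacuoles in mice. All 4 members fell in BECs, and their summed level there had a BDL to Sham ratio of 0.327. Of 13 other settings, Iigp1 and Irgm2 were called in 13, Igtp in 6 and Irgm1 in 5, with limma adjusted p of up to 0.118 for Igtp and 0.126 for Irgm1. Iigp1, the best studied effector of the family, had 6.38, 8.53 and 6.56 FPKM in BDL, against 26.1, 36.3 and 24.2 FPKM in Sham, in BECs. In MPH, Iigp1 had 84.3, 76.2 and 115 FPKM in BDL, against 122, 114 and 186 FPKM in Sham. In Kupffer-like cells, Iigp1 had 22.6, 22.8 and 35.9 FPKM in BDL, against 44.4, 45.0 and 38.7 FPKM in Sham. The BECs groups were far apart, with no BDL library above 8.53 FPKM and no Sham library below 24.2 FPKM. Iigp1 fell in BECs (log2 change -1.86, standard error 0.19, limma adjusted p = 0.00849), on 681 to 907 reads per BDL library and 2694 to 4672 reads per Sham library, and its changes were -0.60 in MPH and -0.67 in Kupffer-like cells. Irgm2 had 4.497, 4.74 and 3.98 FPKM in BDL, against 11.4, 14.6 and 13.7 FPKM in Sham, in BECs. In MPH, Irgm2 had 15.7, 12.0 and 7.58 FPKM in BDL, against 28.2, 28.5 and 22.0 FPKM in Sham. In Kupffer-like cells, Irgm2 had 6.27, 12.8 and 12.1 FPKM in BDL, against 17.7, 17.9 and 21.6 FPKM in Sham. BDL was below Sham in every library of each, and the BECs BDL libraries spanned 3.98 to 4.74 FPKM. Irgm2, which has regulatory roles in the family, fell in BECs (log2 change -1.39, standard error 0.14, limma adjusted p = 0.00748).

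Igtp, whose product is also called Irgm3, had 9.04, 8.16 and 5.75 FPKM in BDL, against 13.4, 24.0 and 24.0 FPKM in Sham, in BECs. In MPH, Igtp had 14.8, 13.9 and 7.70 FPKM in BDL, against 27.5, 33.1 and 23.0 FPKM in Sham. In Kupffer-like cells, Igtp had 7.70, 16.0 and 11.1 FPKM in BDL, against 22.0, 25.3 and 27.2 FPKM in Sham. BDL stayed below Sham in each kind of cell, and Igtp fell in BECs (log2 change -1.28, standard error 0.26, limma adjusted p = 0.0354), with changes of -1.17 in MPH (limma adjusted p = 0.0837) and -1.08 in Kupffer-like cells (0.0722). Igtp and Irgm2 overlap on chromosome 11 on the same strand and share 11.8% of the 50-base stretches of Igtp, and how reads from those stretches were assigned was not tested. Irgm1, the regulator of this family and of autophagy, had 6.11, 5.36 and 4.28 FPKM in BDL, against 8.38, 14.1 and 14.0 FPKM in Sham, in BECs. In MPH, Irgm1 had 10.6, 9.62 and 5.42 FPKM in BDL, against 20.6, 17.1 and 18.9 FPKM in Sham. In Kupffer-like cells, Irgm1 had 12.2, 15.4 and 13.8 FPKM in BDL, against 29.97, 23.3 and 25.2 FPKM in Sham. Every BDL library was below every Sham library. Irgm1 fell in BECs (log2 change -1.05, standard error 0.22, limma adjusted p = 0.0384) and in Kupffer-like cells (log2 change -0.87, standard error 0.16, limma adjusted p = 0.0433), and had a change of -1.10 in MPH (limma adjusted p = 0.0824).

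The chemokines CXCL9 and CXCL10 attract T and NK cells through CXCR3. CXCL9 depends mainly on interferon gamma, while type I interferon and NF-kB also raise CXCL10. Cxcl9 had 4.25, 2.07 and 4.71 FPKM in BDL, against 23.4, 35.8 and 34.0 FPKM in Sham, in Kupffer-like cells. In MPH, Cxcl9 had 3.94, 1.93 and 0.0927 FPKM in BDL, against 16.6, 28.1 and 6.72 FPKM in Sham. In BECs, Cxcl9 had 2.30, 3.18 and 2.47 FPKM in BDL, against 6.01, 14.7 and 14.9 FPKM in Sham. The groups were separate in all 3 kinds of cell, and no BDL library exceeded 4.71 FPKM. Cxcl9 fell in Kupffer-like cells (log2 change -2.80, standard error 0.29, limma adjusted p = 0.0208) and BECs (log2 change -1.73, standard error 0.33, limma adjusted p = 0.0310), and in MPH the change was -2.66 with a limma adjusted p of 0.0892. Cxcl10 had 38.2, 32.9 and 26.6 FPKM in BDL, against 133, 94.8 and 94.9 FPKM in Sham, in Kupffer-like cells. In MPH, Cxcl10 had 6.61, 5.34 and 0.497 FPKM in BDL, against 19.7, 23.2 and 4.93 FPKM in Sham. In BECs, Cxcl10 had 116, 142 and 51.4 FPKM in BDL, against 62.0, 106 and 140.2 FPKM in Sham. The Kupffer-like groups were separate, while the MPH and BECs groups overlapped. Cxcl10 fell in Kupffer-like cells (log2 change -1.69, standard error 0.22, limma adjusted p = 0.0270), and in BECs its change was -0.04 (standard error 0.45, limma adjusted p = 0.966).

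The 16 members not given library by library for every kind of cell had changes of -1.88 to -0.24 in MPH, where all 16 were negative. In BECs they ran between -1.14 and 0.55, with 11 of 15 tested negative, and in Kupffer-like cells between -1.004 and 0.03, with 15 of 16 negative. The smallest limma adjusted p among them was 0.0503 in BECs and 0.0532 in Kupffer-like cells. They included Rtp4, which encodes an interferon-induced Golgi protein, Parp14, an ADP-ribosyltransferase gene, and Trim30a, a TRIM family gene, with Kupffer-like changes of -1.004, -0.997 and -0.52.

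**Figure D4:**
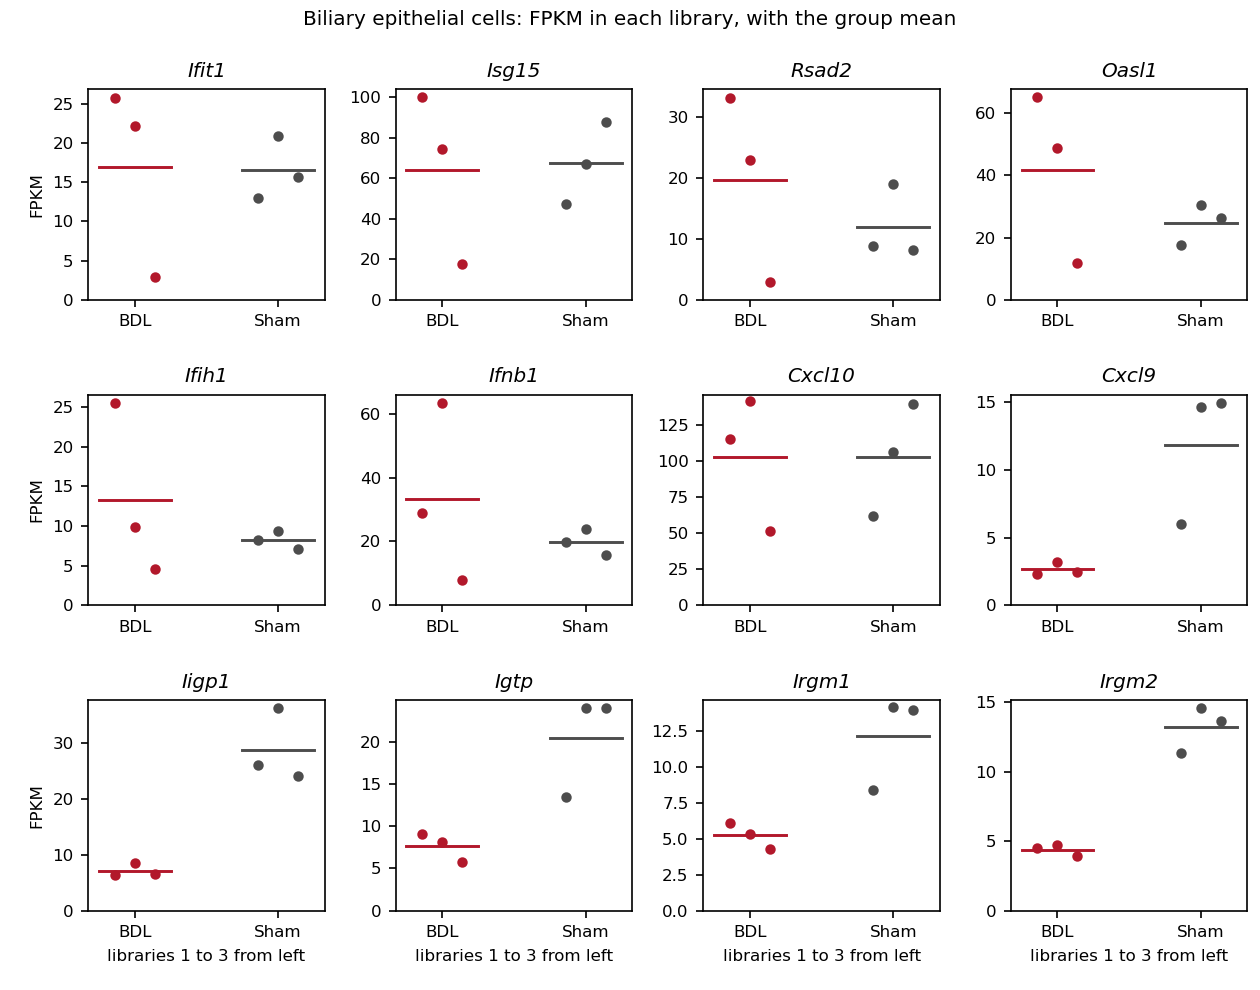
FPKM in the BECs libraries of 12 genes, with BDL in red left of Sham in grey, libraries 1 to 3 from left in each group and a bar at the group mean. Iigp1, Igtp, Irgm1, Irgm2 and Cxcl9 had separate groups, whereas for Ifit1, Isg15, Rsad2 and Oasl1 BDL library 3 was the lowest of all and library 1 the highest.

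Differences between the responses (the BDL over Sham change in one kind of cell minus that in another) were tested as interaction terms over all genes. For BECs minus Kupffer-like cells, 3 members were called, where 3.5% of all genes were called in either direction. These were Ifi208 (difference 1.89, standard error 0.22, limma adjusted p = 0.00754), Ifi213 (1.64, 0.21, 0.0122) and Ifi203 (1.53, 0.31, 0.0325). All fell in Kupffer-like cells, while in BECs the changes were 0.22 for Ifi203 and -0.02 for Ifi213, and Ifi208 was too low there to be tested alone. From their BECs Sham levels, Ifi208 and Ifi213 could fall by at most 0.57 and 0.99 on the log2(FPKM + 1) scale, less than they fell in Kupffer-like cells, so for both genes that scale does not compare the responses. On recovered reads, which have no such limit, voom gave differences of 2.36 for Ifi208 and 1.91 for Ifi213 (adjusted p = 0.0303 for each), with 38 to 62 reads of Ifi208 per BECs library. Ifi203 had 5.15 to 10.5 FPKM in BECs, where it could fall by up to 2.86, and it was called in 9 of 18 other settings, with a limma adjusted p of up to 0.12. Iigp1 went the other way (difference -1.19, limma adjusted p = 0.0512), with its larger change in BECs. Without BECs BDL library 3, the call also took in Ifit1, Ifit2 and Cxcl10, to 6 members, and 5 were called without Kupffer-like BDL library 1 (Iigp1 and Irgm2 added) or 3 (Ddx58 and Iigp1 added).

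For MPH minus BECs, limma called 0 of the members, against 1.6% of all genes, and voom called 0. An unadjusted p under 0.05 was found for 4 members and for 2632 of all 14780 genes. The smallest adjusted p were those of Iigp1 (difference 1.26, limma adjusted p = 0.0906), Stat2 (-0.73, 0.138) and Ifi213 (-1.03, 0.157). Iigp1 passed, at 0.0492, when libraries were rescaled to a common sum. For MPH minus Kupffer-like cells, limma also called 0, against 0.404% of all genes, and voom called 0. An unadjusted p under 0.05 was found for 2683 of all 14101 genes and for 1 member. That 1 was Mx2 (difference 0.93, standard error 0.35, limma adjusted p = 0.193). The next were Ifi213 (0.61, 0.383) and Dhx58 (-0.97, 0.404). With a common sum, 20 of 43 members turned sign in this comparison. A member that missed the threshold is not shown to respond alike in the kinds compared.

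Levels across kinds of cell were set beside each other within Sham and within BDL. In Sham, the highest mean of a member was in Kupffer-like cells for 37 of 43, in MPH for Bst2, Iigp1, Igtp and Irgm2, and in BECs for Ifit1 and Isg15. In BDL it was in Kupffer-like cells for 31, in MPH for the same 4, and in BECs for 8: Ifih1, Ifit1, Ifit2, Oasl1, Isg15, Mx2, Rsad2 and Cxcl10. These orders hold only as far as the deposited scaling does, since the library size behind the MPH values was 0.516 to 0.741 of the reads recovered in genes, against 0.934 to 1.22 in the other kinds.

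Iigp1 averaged 91.9 ± 20.5 FPKM in MPH BDL and 141 ± 39.2 FPKM in MPH Sham, 27.1 ± 7.605 FPKM in Kupffer-like BDL and 42.7 ± 3.49 FPKM in Kupffer-like Sham, and 7.16 ± 1.19 FPKM in BECs BDL and 28.9 ± 6.48 FPKM in BECs Sham (SD, n = 3 each). Its MPH libraries lay above all libraries of both other kinds in BDL as well as in Sham. Cxcl10 averaged 103 ± 46.6 FPKM in BECs BDL, 32.6 ± 5.79 FPKM in Kupffer-like BDL and 4.15 ± 3.23 FPKM in MPH BDL, and each BECs BDL library was above all libraries of the other two. In Sham, Cxcl10 had 107 ± 21.9 FPKM in Kupffer-like cells and 103 ± 39.2 FPKM in BECs, which overlapped. In Sham and in BDL alike, the libraries of Kupffer-like cells were above all others for 12 of 43 members (27.9%), against 5.04% of all genes, among them Ifi203, Ifi204, Ifi208, Ifi213, Oas2, Gbp3 and Irgm1. The same held in MPH for 1 member, Iigp1, against 12% of all genes, and in BECs for 0, against 13%.

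**Figure D5:**
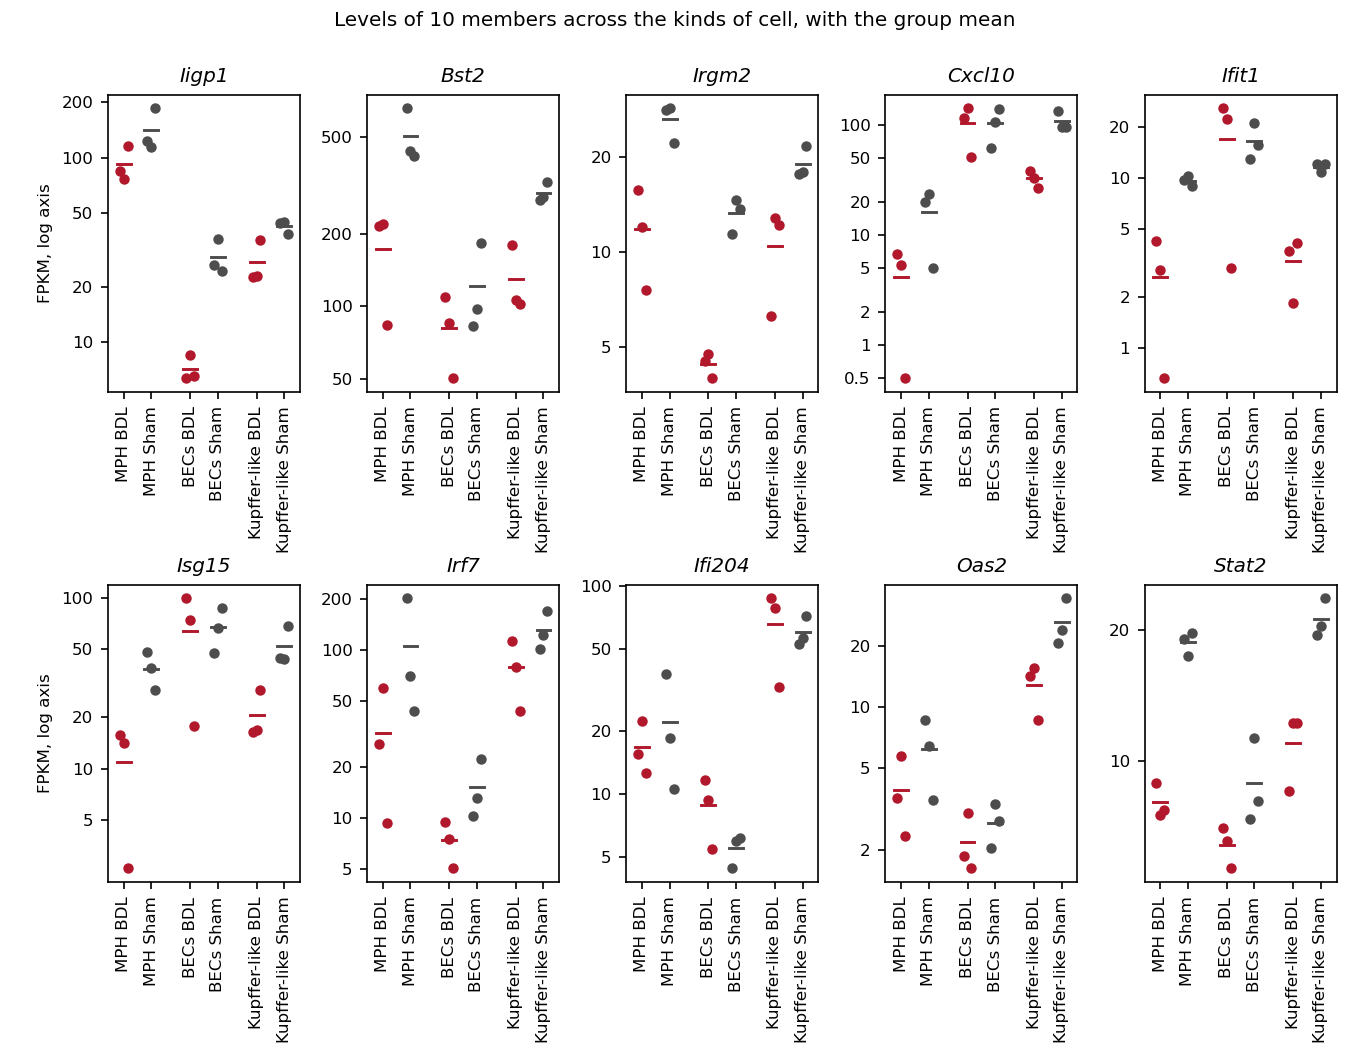
FPKM of 10 members in each group on log axes, with BDL in red left of Sham in grey for MPH, BECs and Kupffer-like cells and a bar at each mean. Iigp1 was highest in MPH, Cxcl10 in BECs after BDL, and Ifi204 and Oas2 in Kupffer-like cells.

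In tests between kinds of cell, MPH against BECs in Sham gave 19 members higher and 3 lower in MPH, beside 30% and 28.3% of all genes. Rescaling turned this over: with libraries brought to a common FPKM sum, 3 were higher and 14 lower in MPH, and with libraries scaled by recovered reads 4 were higher and 11 lower. MPH against BECs in BDL gave 3 higher and 6 lower, beside 22.2% and 23.8% of all genes, and 1 higher and 16 lower with a common sum. For Kupffer-like cells against MPH, 19 members were higher and 2 lower in Sham, beside 28.1% and 28.7% of all genes, and in BDL 15 were higher and 1 lower, beside 11.8% and 16.6%. The common sum gave 41 and 0 in Sham and 30 and 1 in BDL. For Kupffer-like cells against BECs, the direction was the same under both rescalings: 29 members were higher and 0 lower in Sham, beside 20% and 23.9% of all genes, and in BDL 16 were higher and 0 lower, beside 14% and 17.2%. For that pair the rescalings gave 30 and 31 higher in Sham and 11 and 11 in BDL. The rescalings also moved genes in general, and the shares of all genes called under them are not given here. With a common sum and with recovered reads, the median shift over all genes was -0.93 and -0.61 for MPH against BECs in Sham. In BDL it was -0.85 and -0.62. For Kupffer-like cells against MPH it was 0.99 and 0.70 in Sham, and 0.59 and 0.49 in BDL. Against BECs it was 0.08 and 0.11 in Sham, and -0.27 and -0.14 in BDL.

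Genes that act before and beside the members were followed as named lists. Of 9 genes of the interferon receptors and their kinases, 8 had a positive change in BECs and Ifnar1, a chain of the type I receptor, rose (log2 change 0.91, standard error 0.17, limma adjusted p = 0.0288). Ifnar1 had 28.0, 18.8 and 26.4 FPKM in BDL, against 12.0, 12.4 and 12.7 FPKM in Sham, in BECs. The BDL libraries all lay above Sham. Of all genes tested in BECs, 46.4% had a positive change and 2.96% were called higher. Ifnar2, the other chain, had 19.4, 15.6 and 11.8 FPKM in BDL, against 12.8, 13.3 and 14.6 FPKM in Sham, in BECs. Ifngr1, a chain of the interferon gamma receptor, had 84.8, 76.0 and 59.3 FPKM in BDL, against 48.6, 52.9 and 51.8 FPKM in Sham, in BECs. The other, Ifngr2, had 22.7, 19.0 and 15.8 FPKM in BDL, against 10.4, 13.3 and 11.3 FPKM in Sham, in BECs. Both were higher in every BDL library than in any Sham library, and their changes of 0.50 and 0.66, like that of Ifnar2 (0.17), had limma adjusted p of 0.121, 0.0589 and 0.620. No gene of this list was called in MPH or Kupffer-like cells by limma, and voom called 0 in each. An unadjusted p under 0.05 was found for 1 and 0 of them, and for 2791 of 12323 and 3070 of 12748 of all genes. Irf1, the factor through which interferon gamma induces many GTPases, had a change of -0.95 in BECs (limma adjusted p = 0.0825).

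Of 21 interferon genes, Ifnb1 and Ifng were the only ones that passed the filter on level in any comparison. Ifnb1, the gene of interferon beta, had 28.9, 63.3 and 7.78 FPKM in BDL, against 19.7, 24.0 and 15.7 FPKM in Sham, in BECs, and was listed at 0 in all MPH libraries. BECs BDL held both the highest and the lowest of these values, library 2 and library 3, and the change was 0.32 (limma adjusted p = 0.808). Ifng, the gene of interferon gamma, had 2.39, 3.63 and 8.21 FPKM in BDL, against 16.7, 10.0 and 11.3 FPKM in Sham, in Kupffer-like cells. The groups were separate, lower in BDL, with a change of -1.35 that did not pass (limma adjusted p = 0.111). T and NK cell markers, which mark the usual sources of Ifng, summed to 13.6 to 63.3 FPKM in Kupffer-like BDL and 68.2 to 85.4 FPKM in Kupffer-like Sham, and their part in that result was not tested. Among the brakes on signalling, Socs1, an inhibitor of the receptor kinases, fell in Kupffer-like cells (log2 change -1.74, standard error 0.32, limma adjusted p = 0.0457). Of the 12 receptors and adaptors of interferon induction, Ikbke, a kinase that activates IRF3 and IRF7, rose in BECs (1.24) and Mavs, the mitochondrial adaptor of RIG-I, fell there (-0.52), with limma adjusted p of 0.0224 and 0.0420.

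Among 44 further interferon-stimulated genes outside the 43, 7 fell and 1 rose of 40 tested in Kupffer-like cells, 4 fell and 1 rose of 38 in BECs, and 1 fell of 41 in MPH. Of all genes, 2.4% were called lower and 1.47% higher in Kupffer-like cells, 4.7% and 2.96% in BECs, and 0.86% and 0.714% in MPH. Negative changes numbered 33 in Kupffer-like cells, 29 in BECs and 35 in MPH. Over all genes tested, 47.3%, 53.6% and 54.8% had a negative change, in the same order. Tgtp2, an IRG-type GTPase gene, fell in Kupffer-like cells (-1.71, limma adjusted p = 0.0327) and in BECs (-1.91, 0.00906). Tgtp1 fell in BECs (-1.33, limma adjusted p = 0.0375). Shared sequence was counted for the 43 members only, so how reads were divided between Tgtp1 and Tgtp2 was not tested. Isg20, an exonuclease gene, also fell in BECs (-0.87, limma adjusted p = 0.0165), as did Apol9b (-1.27, 0.0378). Uba7, the activating enzyme of ISG15, fell in Kupffer-like cells (-0.86, 0.0378), as did the PYHIN gene Ifi206 (-1.73, 0.0348). Gbp10, a guanylate binding protein gene, fell in MPH (-1.52, limma adjusted p = 0.0213). Ifitm1, which encodes an entry-restricting membrane protein, rose in Kupffer-like cells (log2 change 1.48, standard error 0.16, limma adjusted p = 0.0216), and Ifi207, another PYHIN gene, rose in BECs (log2 change 1.36, standard error 0.31, limma adjusted p = 0.0454). Ifi209, also of that family, had a difference of 1.32 for BECs minus Kupffer-like cells (limma adjusted p = 0.0317). Of 12 genes of MHC class I presentation, 11, 12 and 12 had negative changes in MPH, BECs and Kupffer-like cells. Limma and voom called 0 of them in each. An unadjusted p under 0.05 was found for 5, 0 and 2 of them. Over all genes this was 2791 of 12323, 3526 of 13573 and 3070 of 12748.

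Markers of other cells moved with the groups, and the shares of all genes called in each kind of cell are given above. In MPH, Kupffer cell markers summed to 3497, 4671 and 1205 FPKM in BDL libraries 1, 2 and 3, against 7066, 3124 and 1768 FPKM in Sham. Other markers there summed, in MPH BDL against MPH Sham, to 107 to 259.5 FPKM against 27.7 to 107 FPKM (neutrophil), 109.6 to 196 FPKM against 24.0 to 106 FPKM (monocyte), 152 to 304 FPKM against 57.1 to 128 FPKM (stellate cell and fibroblast), and 0.682 to 1.52 FPKM against 1.96 to 4.91 FPKM (T and NK cell). Of these, 2 of 5 monocyte markers tested were called higher. The library with the lowest Kupffer cell marker sum, MPH BDL 3, was lowest of its group in 41 of 43 members, and the one with the highest, MPH Sham 1, was highest of its group in 33. MPH BDL 2, with the highest sum in MPH BDL, was highest of its group in 18 members, against 24 for MPH BDL 1. In Kupffer-like cells, endothelial markers summed to 342 to 818 FPKM in BDL and 1289 to 1576 FPKM in Sham, with 5 of 8 called lower, and neutrophil markers to 826 to 2291 FPKM in BDL and 290.3 to 299.9 FPKM in Sham, with 3 of 6 tested called higher. B and plasma cell markers there summed to 23.9 to 117 FPKM in BDL and 181 to 224 FPKM in Sham. Monocyte markers there summed to 540 to 789 FPKM in BDL and 175 to 430 FPKM in Sham. Hepatocyte markers there summed to 1019 to 3529 FPKM in BDL and 412 to 869 FPKM in Sham. Stellate cell and fibroblast markers there summed to 153 to 225 FPKM in BDL and 38.0 to 96.3 FPKM in Sham. In BECs, endothelial markers summed to 54.3 to 78.4 FPKM in BDL and 145 to 192 FPKM in Sham, with 7 of 8 called lower, and hepatocyte markers to 144 to 567 FPKM in BDL and 1389.8 to 3399.6 FPKM in Sham. Neutrophil markers in BECs summed to 298 to 455 FPKM in BDL and 32.4 to 110.1 FPKM in Sham, with 5 of 6 tested called higher, and monocyte markers to 85.5 to 261 FPKM in BDL and 54.9 to 65.7 FPKM in Sham, with 2 of 6 called higher. Kupffer cell markers in Kupffer-like libraries summed to 13357, 8601 and 2304 FPKM in BDL, against 6180.5, 5980.3 and 7242 FPKM in Sham, so that the BDL libraries lay on both sides of Sham. Kupffer-like BDL library 3, with the lowest of these sums, was highest of its group in 17 members and lowest in 13. In BECs, Kupffer cell markers summed to 378, 406 and 129 FPKM in BDL, against 145, 133 and 239 FPKM in Sham. BECs BDL library 3, the lowest of these, was lowest of its group in 39 of 43 members. BECs BDL library 2, the highest, was highest of its group in 15 members, against 27 for library 1. Stellate cell and fibroblast markers in BECs summed to 794 to 1422 FPKM in BDL and 443 to 785 FPKM in Sham. Plasmacytoid dendritic cell markers, in BDL against Sham, summed to 0.410 to 2.79 against 2.90 to 4.80 FPKM in MPH. In BECs these were 19.4 to 42.6 against 2.63 to 15.2 FPKM, and in Kupffer-like cells 4.14 to 26.3 against 15.7 to 59.9 FPKM. Conventional dendritic cell markers summed to 3.40 to 5.51 against 3.24 to 7.43 FPKM in MPH. In BECs these were 5.80 to 28.7 against 16.0 to 23.6 FPKM, and in Kupffer-like cells 12.4 to 15.7 against 22.1 to 27.4 FPKM. The part of these shifts in the members' changes was not tested.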

How the data were processed

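RNA of 18 libraries was measured by poly(A) RNA sequencing. The authors deposited 1 table of FPKM values per gene and library. Per the submitters' processing notes, the tools named included CASAVA 1.8, fastp, HISAT2 2.0.5 and featureCounts 1.5.0-p3, with builds GRCm38 and mm10. Neither annotation release nor strandedness of counting was given in the sources used here.

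Sample groups and replicate numbers came from the labels. Kupffer-like cells are also written Kupffer in them, and stellate cells named in the design were not analysed here. Gene lengths of GENCODE M21 exons turned 97.37 to 98.36% of values below 200 reads into whole reads (tolerance 0.02) in 53710 of 54532 gene entries. Those reads gave depth and the voom alternative.

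BDL was set against Sham in each kind of cell, with a separate limma 3.58.1 fit (R 4.3.3, trend and robust settings) on log2(FPKM + 1) for genes with at least 1 FPKM in at least 3 libraries. Differences of response used all 12 libraries of 2 kinds of cell, and levels between kinds used the 9 libraries of Sham or of BDL in 1 fit. A log2 change on this scale understates changes of low genes. P-values were adjusted by Benjamini and Hochberg over all genes tested, with 0.05 as threshold. Promoters, exon overlap and shared 50-base stretches came from RefSeq and GENCODE tables and carry no measurement.

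The members, their role lists, the pathway lists and the markers were chosen with earlier results of these data known. Members given library by library were those called for BDL against Sham or for a response, the 3 highest by mean FPKM in each kind of cell, and the 3 with the smallest p where fewer than 3 members were called. Others named singly, such as Ifi204, Oasl1, Ifih1, Rsad2, Gbp2 and the pathway genes Ifi207 and Ifi209, were chosen after their values were seen. The result of 1 gene of the pathway lists is not reported here.

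Alternatives were a pseudocount of 0.1, no filter, 2 rescalings, voom, all 18 libraries in 1 fit, leaving out each library, and sex as a covariate, added after seeing the data. Title numbers were tested for pairing: across 15594 genes, MPH and Kupffer-like libraries of the same number deviated together with correlations of 0.213, 0.324 and 0.299. Libraries of different numbers had correlations of -0.320 to 0.208, which comes close to the lowest of these. The numbers were taken to pair the libraries, which the labels do not state, and the main fits did not use the pairing. BECs shared no number with the others.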

Additional observations from a re-analysis of the deposited data

Results flagged for a closer look

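A difference in BDL response between kinds of cell, tested as an interaction term over all genes, drew attention to 3 members. The response of BECs minus that of Kupffer-like cells was 1.89 for Ifi208, 1.64 for Ifi213 and 1.53 for Ifi203 on the log2(FPKM + 1) scale. Each fell in Kupffer-like cells in 3 of 3 BDL libraries against all Sham libraries, and the BECs groups overlapped. Ifi208 had at most 0.573 FPKM in every BECs library and Ifi213 at most 1.22 FPKM, so that on this scale neither could fall in BECs as far as in Kupffer-like cells, and their differences on it do not compare the responses. Only Ifi203, with at least 5.15 FPKM in each BECs library, had that room. Ifi208 and Ifi213 share sequence with each other, so they are not independent examples.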

How the results depend on the processing

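Unless a value follows, the direction of the counts of called members stayed as reported. For BDL against Sham, without the filter on level 0 members were called in MPH, 0 in Kupffer-like cells and 2 in BECs. With all 18 libraries in 1 fit there were 19 in MPH and 8 in Kupffer-like cells, and with sex as a covariate 0 in MPH, 0 in Kupffer-like cells and 3 in BECs. Both rescalings left 0 in MPH. A common FPKM sum gave 1 member for MPH minus BECs, and no filter gave 1 for BECs minus Kupffer-like cells. Leaving out single libraries gave 0 in MPH, 0 to 25 in Kupffer-like cells and 2 to 5 in BECs, and for the responses 0 for MPH minus BECs, 0 for MPH minus Kupffer-like cells and 2 to 6 for BECs minus Kupffer-like cells.

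Between kinds of cell, no filter gave 14 for MPH against BECs in Sham, 3 in BDL, and 10 for Kupffer-like cells against MPH in BDL. A common sum gave 17 for MPH against BECs in BDL, and for Kupffer-like cells against MPH 41 in Sham and 31 in BDL, where recovered reads gave 39 and 29 and sex as a covariate 26 in BDL. Both rescalings shifted all genes in these comparisons too, as given above. Leaving out single libraries gave, for MPH against BECs, 16 to 28 in Sham and 3 to 12 in BDL. It gave 15 to 32 and 8 to 19 for Kupffer-like cells against MPH, and 25 to 33 and 10 to 22 for Kupffer-like cells against BECs. For MPH against BECs in Sham, the common sum reversed Stat2 (-0.054), Ddx58 (-0.45), Usp18 (-0.19), Cmpk2 (-0.37), Trim30a (-0.14), Irgm1 (-0.46) and Irgm2 (-0.16), and recovered reads reversed Ddx58 (-0.095), Cmpk2 (-0.036) and Irgm1 (-0.081). For Kupffer-like cells against MPH in Sham, Irgm2 reversed to 0.74 and 0.39. The replicate block on title numbers gave 27 members for Kupffer-like cells against MPH in Sham, against 21 without it, and 0 for MPH minus Kupffer-like cells. Other comparisons shared fewer than 2 numbers. The causes of these moves were not tested, and the share of all genes called under each setting is not given here. With 3 libraries a group, many calls were lost or gained when 1 library was left out.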
